A study of Mus musculus with 12 samples.

Results

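The 9 genes described here code for proteins of the postsynaptic side of excitatory synapses and of the dendrite: Ddn, Camk2a, Camk2b, Dlg4, Dlgap1, Dlgap3, Shank1, Shank2 and Shank3. They were picked by symbol from the 17202 genes of the deposited table, by a rule that holds no measured value but was written with earlier results of these data known, and all 9 had 1 row there and passed the filter on low values that 17111 genes passed. The study asked whether curcumin given with verapamil changes gene expression in the cortex of mice that model Williams-Beuren syndrome. RNA from the cortex of 12 C57Bl6 mice was sequenced, 3 in each of 4 groups. VEH-WT mice were untreated wild type (WT) mice, which received only vehicle according to the study's methods. VEH-CD mice were untreated mice with the complete deletion (CD), a heterozygous deletion that runs from Gtf2i to Fkbp6. VERCUR-WT and VERCUR-CD mice were the same genotypes given curcumin at 60 and verapamil at 10 mg/kg/day in the drinking water from 8 weeks of age. The labels put all mice at 16 weeks, while the study's methods give a lower verapamil dose and a younger age, and this disagreement could not be settled here. Per the same methods the mice were males, the line had been crossed with Thy1-YFP mice, whose transgene labels pyramidal neurons, and the piece taken was frontal cortex. The deletion is present in every tissue of these mice.

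The postsynaptic density is a protein layer under the membrane of the dendritic spine that holds glutamate receptors opposite the presynaptic terminal. Dlg4 (PSD-95) binds receptors and adhesion proteins at the membrane, the Dlgap proteins (SAPAP or GKAP) join Dlg4 to the Shank proteins below, and the Shank proteins reach towards Homer and the actin cytoskeleton. Camk2a and Camk2b code for the main subunits of the calcium- and calmodulin-dependent kinase CaMKII, an abundant enzyme of the spine that acts in synaptic plasticity. Ddn codes for dendrin, a proline-rich protein of dendrites and of kidney podocytes, and its mRNA, like that of Camk2a, is carried into dendrites.

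Between 40287647 and 56480948 reads were assigned to genes in each mouse. Of the 17 genes of the deleted interval with a WT mean of at least 100 normalized counts, 17 were lower in CD than in WT mice over both treatments, at 0.389 to 0.594 of the WT mean with a median of 0.505, so the libraries fitted their genotype labels. The 7 markers of cortical excitatory neurons summed to 114028 to 134273 normalized counts across the 12 mice, so the defining markers of the labelled tissue were present. The markers of striatal neurons were also present and varied within every group. Their sums ran from 22119 to 44167 in VEH-WT, 21336 to 46799 in VEH-CD, 12198 to 50165 in VERCUR-WT and 12595 to 36594 in VERCUR-CD. One mouse, VERCUR-CD 2, stood apart: its median deviation from the mean of all mice was 0.19 on the log2 scale over the tenth of genes with the lowest GC content and -0.16 over the tenth with the highest, and it held the highest value of the 12 mice for 21.5% of genes. The samples are bulk tissue, so fewer cells of a type and less RNA per cell cannot be told apart.

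The 9 genes were among the more abundant transcripts of this tissue. Levels are given as normalized counts per kilobase of annotated exon, averaged over the 12 mice. Camk2a had the highest level, 25226 ± 2719 (SD, n = 12), the 37th highest of the 17090 genes with a length, and Ddn followed with 22310 ± 3336. In VEH-CD mice the order was reversed, with means of 24470 for Ddn and 23600 for Camk2a. Dlgap3 came next, at 8130 ± 477. Shank1, at 4393 ± 452, and Camk2b, at 4383 ± 167, had nearly the same level, and Dlg4 lay just under them at 3873 ± 148. Dlgap1, at 1883 ± 132, and Shank3, at 1878 ± 122, could not be put in order, and Shank2 was lowest at 1031 ± 152. The ranges over the 12 mice overlapped between neighbours of that order for Camk2a and Ddn, for Shank1, Camk2b and Dlg4, and for Dlgap1 and Shank3, while Dlgap3 and Shank2 were separate from the genes on either side. The lengths join the exons of every annotated transcript, so a gene with many partly retained forms is given too low a level.

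**Figure D1:**
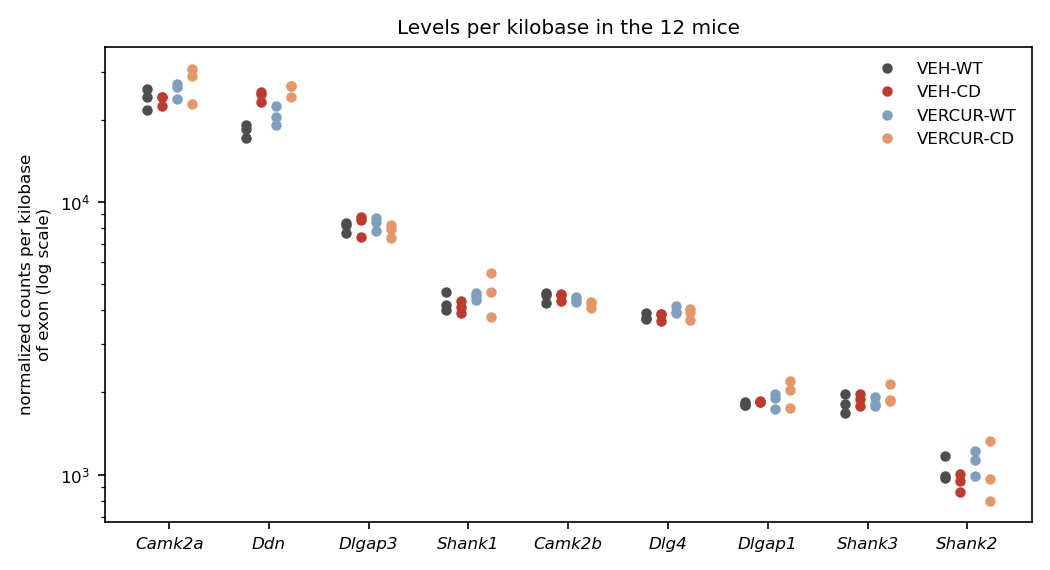
Normalized counts per kilobase of exon (vertical axis, log scale) of the 9 genes (horizontal axis, from the highest mean to the lowest), with 1 point per mouse coloured by group. Camk2a and Ddn lie above the other 7 genes in every mouse, and only for Ddn do the CD points lie wholly above the WT points.

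Ddn was the 1 gene of the 9 that passed the test between genotypes. Its gene lies on the minus strand at chr15:98803777-98809490 (GRCm38, GENCODE M21). In VEH-WT mice Ddn had 69821, 65036 and 72320 normalized counts, and in VEH-CD mice it had 95577, 88033 and 93984. The groups did not overlap, and the lowest VEH-CD mouse lay well above the highest VEH-WT mouse. In VERCUR-WT mice Ddn had 84661, 77463 and 72086 normalized counts, and in VERCUR-CD mice 91844, 100813 and 100598. These groups did not overlap either, so that all 6 CD mice were above all 6 WT mice.

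As group means, Ddn rose from 69059 ± 3701 (SD, n = 3) in VEH-WT to 92531 ± 3976 in VEH-CD, 1.34-fold (95% interval 1.21 to 1.49), a log2 fold change of 0.42 with a standard error of 0.07 (limma with Benjamini-Hochberg adjustment, adjusted p = 0.0257). In the co-treated mice the means were 78070 ± 6310 in VERCUR-WT and 97751 ± 5118 in VERCUR-CD, a 1.254-fold difference (1.129 to 1.392), which did not pass the adjusted threshold (limma, unadjusted p = 0.000485, Benjamini-Hochberg adjusted p = 0.185). Over both treatments, with 6 mice a genotype, Ddn was 1.30-fold higher in CD mice (1.20 to 1.40; limma, Benjamini-Hochberg adjusted p = 0.00333). The 2 deletion effects differed by -0.10 on the log2 scale (95% interval -0.31 to 0.12), and this interaction did not pass the test (limma, Benjamini-Hochberg adjusted p = 0.844).

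The vehicle comparison was close to its threshold. Ddn lost the call without any 1 of VEH-WT 1, VEH-WT 2, VEH-WT 3, VEH-CD 1 or VEH-CD 3, with adjusted p (limma, Benjamini-Hochberg) of 0.0573 to 0.162, while over all 12 fits that left out 1 mouse its log2 fold change stayed between 0.38 and 0.46. The call was also lost after values were centred within bins of GC content, at an adjusted p of 0.106, without the intensity trend, at 0.0951, with the replicate number as a block, at 0.052, and with the block and GC bins, at 0.125. The comparison over both treatments kept the call in all 12 fits that left out 1 mouse, with adjusted p from 0.00177 to 0.0171, and at 0.00696 without VERCUR-CD 2, but lost it with the block and GC bins together, at 0.0539.

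**Figure D2:**
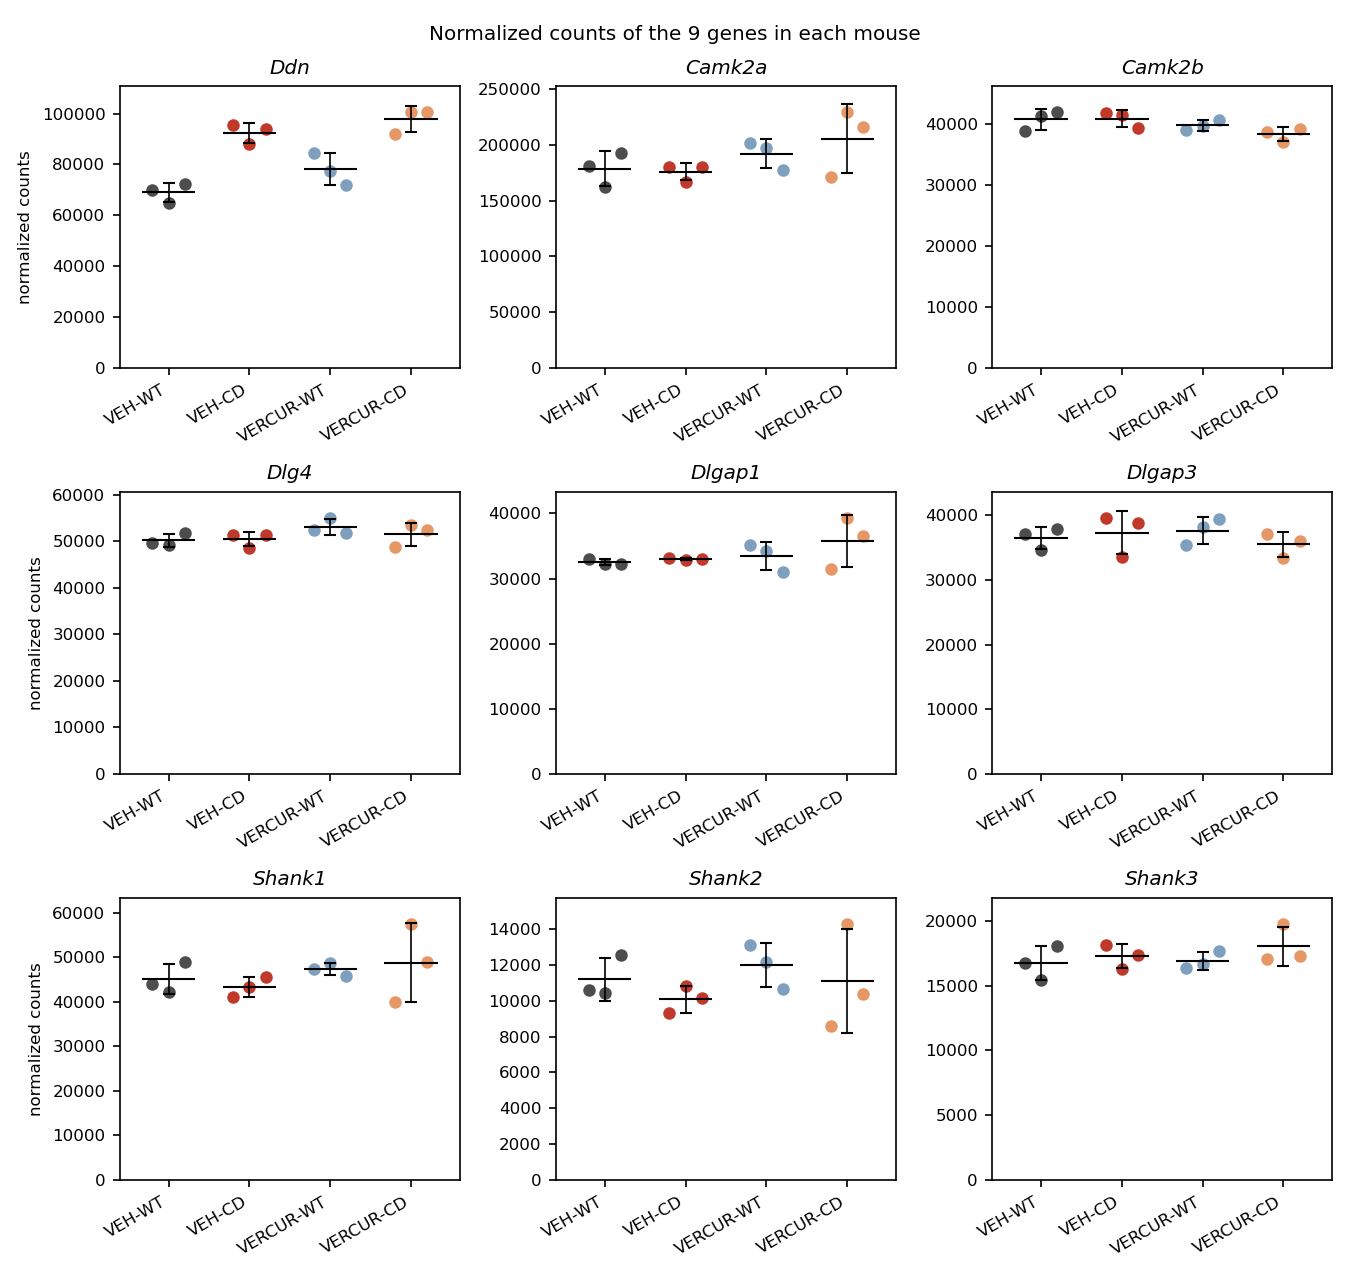
Normalized counts (vertical axis, from 0) of each of the 9 genes in the 4 groups, with 1 point per mouse, a line at the group mean and bars of 1 SD (n = 3). The 6 CD points of Ddn, from 88033 to 100813 normalized counts, lie above its 6 WT points, from 65036 to 84661, and the other 8 panels show overlapping genotypes.

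The mean of Ddn was not lower in co-treated than in vehicle CD mice. VERCUR-CD was 1.06-fold VEH-CD (0.951 to 1.17; limma, Benjamini-Hochberg adjusted p = 0.867), and the 2 groups overlapped. Against VEH-WT, VERCUR-CD mice had 1.42-fold the Ddn level (1.27 to 1.57; limma, Benjamini-Hochberg adjusted p = 0.00608), a call lost without VEH-WT 2, at 0.0524, and without VERCUR-CD 3, at 0.0553. In WT mice Ddn was 1.129-fold as high with co-treatment (1.017 to 1.254), a difference that did not pass (limma, unadjusted p = 0.0268, Benjamini-Hochberg adjusted p = 0.944), and VERCUR-WT 3 lay below VEH-WT 3. These comparisons share groups with those above and are not independent of them.

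A second gene is annotated on the other strand of Ddn. B130046B21Rik, a long non-coding RNA on the plus strand at chr15:98807024-98816077, shares 177 bases of its first exon with the coding part of the second exon of Ddn. Nothing in the sources used here says that reads were counted by strand, so reads from these bases cannot be told apart. The stretch is shown because it is where the counts of both genes meet. Below, the last 45 bases of the first Ddn exon, which lie at chr15:98807605-98807649, are in lower case, and the 177 shared bases, at chr15:98807024-98807200, are in capitals. The sequence is written 5′ to 3′ on the Ddn strand from the GENCODE M21 transcripts.
Ddn: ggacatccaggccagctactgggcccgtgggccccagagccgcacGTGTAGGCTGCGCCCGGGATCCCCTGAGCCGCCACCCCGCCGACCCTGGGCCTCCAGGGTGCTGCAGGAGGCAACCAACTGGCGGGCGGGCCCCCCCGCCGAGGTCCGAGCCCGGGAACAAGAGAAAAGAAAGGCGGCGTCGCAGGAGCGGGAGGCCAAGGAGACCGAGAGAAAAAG

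The shared bases had a GC content of 70.6% and made up 4.73% of the main Ddn transcript of 3745 bases and 7.96% of the antisense transcript of 2224 bases. B130046B21Rik had 347, 316 and 305 normalized counts in VEH-WT mice and 455, 434 and 511 in VEH-CD mice. It had 414, 361 and 381 in VERCUR-WT mice and 428, 434 and 461 in VERCUR-CD mice. Every CD mouse was above every WT mouse, as for Ddn. In each mouse the antisense count was between 0.422% and 0.544% of the Ddn count. B130046B21Rik was 1.44-fold higher in VEH-CD than in VEH-WT mice (1.26 to 1.66; limma, Benjamini-Hochberg adjusted p = 0.0351) and 1.29-fold higher in CD mice over both treatments (adjusted p = 0.0337). The first call was lost in 7 and the second in 8 of the 12 fits that left out 1 mouse, with adjusted p up to 0.213 and 0.137. Between the co-treated genotypes B130046B21Rik differed 1.145-fold (0.996 to 1.315; limma, unadjusted p = 0.0556), which did not pass. Its interaction was -0.33 on the log2 scale (-0.62 to -0.05; limma, unadjusted p = 0.0242, Benjamini-Hochberg adjusted p = 0.816) and did not pass either. B130046B21Rik is no member of the set and was looked at after the value of Ddn was known. The part of reads shared with Ddn in its difference was not tested.

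**Figure D3:**
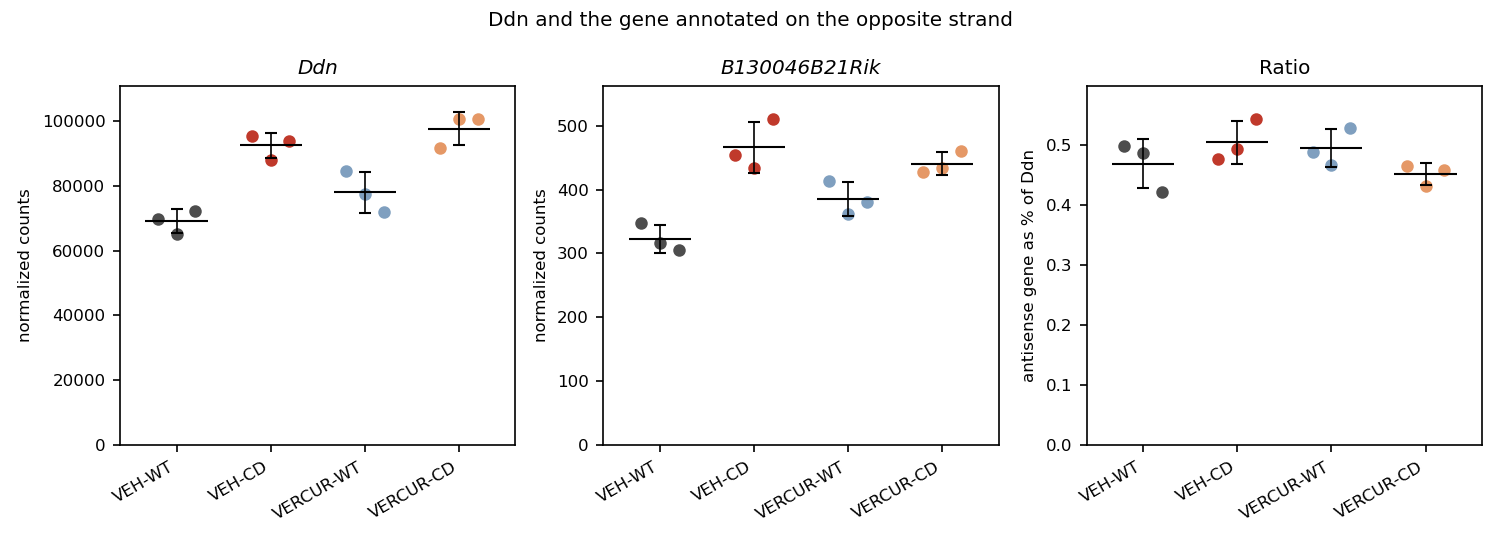
Normalized counts of Ddn (left) and of B130046B21Rik (middle), and B130046B21Rik as a percent of Ddn (right), in the 4 groups, with 1 point per mouse, a line at the mean and bars of 1 SD (n = 3). Both genes are higher in the CD mice of each treatment, and the percent lies between 0.422 and 0.544 in all 12 mice.

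Apart from B130046B21Rik, no other gene near Ddn passed the test. Of the 21 further genes tested within 250 kb of Ddn on chromosome 15, none passed the adjusted threshold between CD and WT mice over both treatments (limma, Benjamini-Hochberg, smallest adjusted p = 0.300), 2 had an unadjusted p under 0.05, and their log2 fold changes ran from -0.18 to 0.14. The window was chosen after the value of Ddn was seen.

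Of the 6 lists of partner genes and the 9 marker and activity lists, most had summed levels that overlapped between the vehicle genotypes. The exceptions were the immediate early genes, the inhibitory neuron markers and the dendritic genes listed below. They were no larger a share of the lists than the 20.6% of all genes that did not overlap in this comparison. The 10 immediate early genes, which neurons switch on with activity, had a summed level of 37823 to 62994 in the VEH-WT mice, in normalized counts, and of 14040 to 31401 in the VEH-CD mice, where 10 of 10 had a negative log2 fold change and 1, Sik1, passed the adjusted threshold (limma, Benjamini-Hochberg adjusted p = 0.0285). The 6 inhibitory neuron markers summed to 42452 to 46331 in VEH-WT and to 37768 to 40833 in VEH-CD mice. Of these 0 of 6 passed, with 2 of 6 at an unadjusted p under 0.05, beside 11.8% of all genes. The 13 genes of the dendritic cytoskeleton and of dendritic RNA, which include Arc, summed to 168172 to 180633 in VEH-WT and to 150587 to 155163 in VEH-CD mice. The dendritic genes did not fall as a group: 6 had a positive and 7 a negative log2 fold change, with a median of -0.035. Arc had the lowest, -2.24, with means of 26590 in VEH-WT and 6157 in VEH-CD mice. In the co-treated mice, where Ddn did not overlap between genotypes, the sums of the immediate early, inhibitory and dendritic lists did. They were 26047 to 36032 and 21514 to 33393 for the immediate early genes, and 39160 to 42647 and 39196 to 40054 for the inhibitory markers. For the dendritic genes they were 154350 to 168483 and 165695 to 174690. The part of any of these lists in the Ddn difference was not tested. The cortical excitatory markers summed to 119123 to 126260 in VEH-WT and to 121742 to 130886 in VEH-CD mice. Of the markers of cortical excitatory neurons, striatal neurons, choroid plexus, oligodendrocytes, astrocytes, microglia and endothelial cells 0 passed the adjusted threshold in any of the 7 comparisons (limma, Benjamini-Hochberg).

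Neither kinase subunit passed a test of the deletion. Camk2a had 181265, 162015 and 193303 normalized counts in VEH-WT mice and 180668, 167253 and 180691 in VEH-CD mice. With co-treatment it had 202020, 197632 and 177542 in WT and 171088, 230024 and 216226 in CD mice. All groups overlapped, and the VERCUR-CD mice included both the highest value and 1 below the means of the other groups. The log2 fold change was -0.02 between the vehicle groups (95% interval -0.24 to 0.21) and 0.03 over both treatments (-0.12 to 0.19). The largest difference of Camk2a was that of VERCUR-CD against VEH-CD mice, 1.16-fold (0.993 to 1.35; limma, unadjusted p = 0.0595, Benjamini-Hochberg adjusted p = 0.867), and without VERCUR-CD 2 its log2 fold change moved from 0.21 to 0.13.

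Camk2b and Dlg4 were the steadiest of the 9 genes, with an SD of 3.81% and 3.83% of the mean over all 12 mice. The Camk2b counts were 38938, 41444 and 42104 in VEH-WT, 41828, 41587 and 39352 in VEH-CD, 39076, 39684 and 40719 in VERCUR-WT and 38737, 37165 and 39294 in VERCUR-CD mice. The 3 VERCUR-CD mice lay just below the 3 VEH-CD mice, and the other groups overlapped. The log2 fold change of Camk2b was 0.004 between the vehicle groups (-0.11 to 0.11) and -0.09 for VERCUR-CD against VEH-CD (-0.20 to 0.02; limma, Benjamini-Hochberg adjusted p = 0.867). The sign of the vehicle difference turned under quantile normalization and under centring by GC content.

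Dlg4, the central scaffold, had 49708, 49198 and 51710 normalized counts in VEH-WT mice and 51323, 48650 and 51326 in VEH-CD mice. With co-treatment it had 52471, 55097 and 51840 in WT and 48720, 53418 and 52332 in CD mice. The genotypes overlapped in both treatments, while the 3 VERCUR-WT mice lay above the 3 VEH-WT mice. The deletion effect was 0.01 on the log2 scale in vehicle mice (-0.11 to 0.12) and -0.05 in co-treated mice (-0.16 to 0.07). The difference between the WT groups was 1.058-fold (0.978 to 1.146; limma, Benjamini-Hochberg adjusted p = 0.999).

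The linker genes Dlgap1 and Dlgap3 passed no test either. Dlgap1 had 33017, 32227 and 32214 normalized counts in VEH-WT mice and 33220, 32914 and 32941 in VEH-CD mice, groups with SDs of 1.42% and 0.51% of their means. In VERCUR-WT mice it had 35194, 34185 and 31005, and in VERCUR-CD mice 31386, 39358 and 36563. The co-treated mice were thus more spread than the vehicle mice, in both genotypes. Dlgap1 was 1.02-fold as high in VEH-CD as in VEH-WT mice (0.908 to 1.14) and 1.04-fold over both treatments (0.961 to 1.13).

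Dlgap3 had 37118, 34629 and 37839 normalized counts in VEH-WT mice, 39648, 33553 and 38788 in VEH-CD, 35382, 38184 and 39380 in VERCUR-WT and 37097, 33421 and 36021 in VERCUR-CD mice. All 4 groups overlapped. Its log2 fold change was 0.03 in vehicle mice (-0.13 to 0.19) and -0.08 in co-treated mice (-0.24 to 0.07), with an interaction of -0.11 (-0.34 to 0.11; limma, Benjamini-Hochberg adjusted p = 0.833).

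Shank1 and Shank2 had the largest SDs within a group of the 9 genes, 18.2% and 26.3% of the mean in VERCUR-CD mice. Shank1 had 44122, 42326 and 48963 normalized counts in VEH-WT mice, 41094, 43390 and 45604 in VEH-CD, 47454, 48769 and 45912 in VERCUR-WT and 39879, 57618 and 49067 in VERCUR-CD mice. The VERCUR-CD group held both the lowest and the highest of the 12 values. Shank1 was 0.962-fold as high in VEH-CD as in VEH-WT mice (0.820 to 1.13) and 1.02-fold in the co-treated mice (0.870 to 1.20). The gene 1700008O03Rik, also in the table, is annotated on the other strand within Shank1.

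Shank2 had 10593, 10455 and 12594 normalized counts in VEH-WT mice, 9307, 10814 and 10185 in VEH-CD, 13137, 12184 and 10680 in VERCUR-WT and 8627, 14329 and 10364 in VERCUR-CD mice. The VERCUR-CD group again held the lowest and the highest mouse. The deletion effect had the same sign in both treatments, 0.902-fold in vehicle mice (0.721 to 1.13) and 0.908-fold in co-treated mice (0.725 to 1.14), but did not pass the test over both treatments (0.905-fold, 0.772 to 1.06; limma, Benjamini-Hochberg adjusted p = 0.738). In the co-treated mice the sign rested on 1 mouse: without VERCUR-CD 1 the log2 fold change between the co-treated genotypes turned from -0.14 to 0.03. Over both treatments the log2 fold change ran from -0.24 without VERCUR-CD 2 (adjusted p = 0.174) to -0.06 without VERCUR-CD 1.

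Shank3, whose human counterpart is the gene lost in Phelan-McDermid syndrome, had 16725, 15427 and 18077 normalized counts in VEH-WT mice, 18160, 16330 and 17379 in VEH-CD, 16396, 16659 and 17719 in VERCUR-WT and 17094, 19801 and 17273 in VERCUR-CD mice. All groups overlapped, and VERCUR-CD 2 was the highest mouse. The log2 fold change was 0.05 in vehicle mice (-0.11 to 0.21), 0.09 in co-treated mice (-0.07 to 0.25) and 0.07 over both treatments (-0.04 to 0.18).

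**Figure D4:**
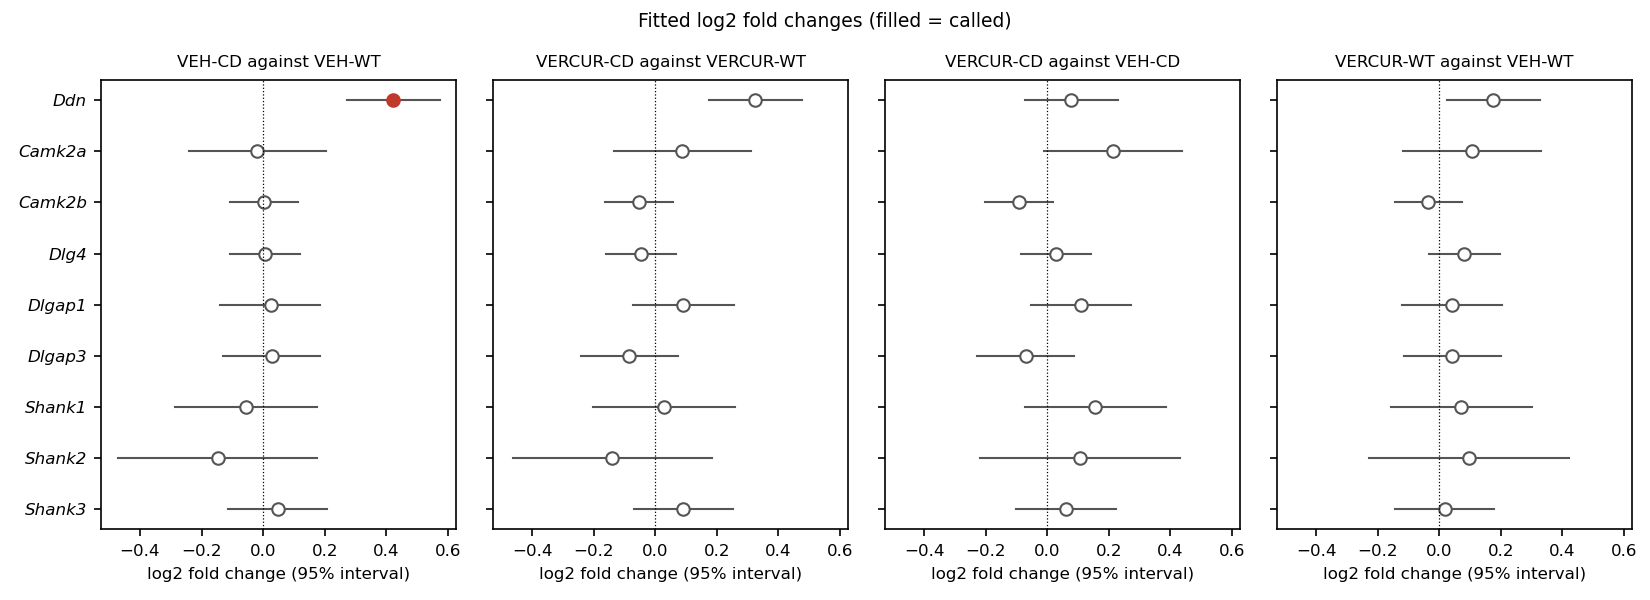
Fitted log2 fold changes (horizontal axis) of the 9 genes (vertical axis) in 4 comparisons of 3 mice against 3, with 95% intervals as lines, where a filled point is a called gene. Ddn lies to the right of 0 in all 4 panels, at 0.42 and 0.33 in the 2 genotype comparisons. It lies at 0.079 in VERCUR-CD against VEH-CD, with an interval that includes 0. In VERCUR-WT against VEH-WT it lies at 0.175 (0.024 to 0.327) and is not called. The intervals of the other 8 genes include 0 in all 4 panels.

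Set against all genes, the count of called members was 1 of 9, Ddn, in 3 of the 7 comparisons. A gene was called at an adjusted p under 0.05 with a log2 fold change above 0.32 or below -0.42, the fold limits of the study's methods. In VEH-CD against VEH-WT mice 0.257% of the 17111 genes were called, in CD against WT mice over both treatments 0.321%, and in VERCUR-CD against VEH-WT mice 0.199%. In VERCUR-CD against VERCUR-WT mice 0 of 9 members and 0.146% of genes were called. In VERCUR-CD against VEH-CD mice, in VERCUR-WT against VEH-WT mice and in the interaction (adjusted p alone) 0 members and 0% of genes were called by limma, and limma voom on the recovered reads also called 0 genes in each.

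At an unadjusted p under 0.05 the members were again Ddn alone. It passed in VEH-CD against VEH-WT, where 11.8% of genes did, in VERCUR-CD against VERCUR-WT, with 4.1% of genes, over both treatments, with 9.64%, in VERCUR-WT against VEH-WT, with 5.22%, and in VERCUR-CD against VEH-WT, with 8.68%. In VERCUR-CD against VEH-CD and in the interaction 0 of 9 members passed, beside 3.54% and 6.05% of genes.

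The groups of 1 member did not overlap in each of 6 comparisons. This was Ddn in VEH-CD against VEH-WT, where 20.6% of genes did not overlap, in VERCUR-CD against VERCUR-WT, with 7.74%, over both treatments, with 1.05%, and in VERCUR-CD against VEH-WT, with 13.9%. It was Camk2b, lower in VERCUR-CD than in VEH-CD mice, in a comparison where 8.34% of genes did not overlap, and Dlg4, higher in VERCUR-WT than in VEH-WT mice, with 9.72%. One member of 9 is no larger a share than that of all genes in VEH-CD against VEH-WT and in VERCUR-CD against VEH-WT, and is close to it in the other comparisons of 3 mice against 3. Over both treatments, with 6 mice against 6, the share of all genes was lower.

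The median SD within groups was 5.32% of the mean for the 9 members and 8.48% for all genes tested. One mouse was often at the extreme. VERCUR-CD 2 held the highest value of the 12 mice for 6 of the 9 members, Ddn, Camk2a, Dlgap1, Shank1, Shank2 and Shank3, beside 21.5% of all genes, and the lowest for 2 of 9, Camk2b and Dlgap3, beside 17.9% of all genes. The GC content of each member's longest annotated transcript ran from 46.8% in Dlg4 to 63.9% in Dlgap3, with Shank1 and Shank3 at 61.4% and 62.4%. The part of GC content in the values of this mouse was not tested. VERCUR-CD 1, of the same group, held the lowest values of Shank1 and Shank2. Without VERCUR-CD 2 the fold change of Shank1 between the co-treated genotypes turned from 0.03 to -0.10 on the log2 scale and that of Shank2 between VERCUR-CD and VEH-CD mice from 0.11 to -0.09. The sum of the astrocyte markers was also highest in VERCUR-CD 2, at 264321 normalized counts, against 150503 to 207503 in the other 11 mice. Most of such a sum is Slc1a2, with a mean of 157300 in VERCUR-CD mice, where Slc1a3, the next, had 28280. VERCUR-CD 2 had the highest sum of the 22 other scaffold genes as well, 274146 against at most 247486. So it did for the 10 glutamate receptor genes, 156227 against at most 148915, and the 14 presynaptic genes, 688238 against at most 668842. The part of these lists in the members' values was not tested.

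**Figure D5:**
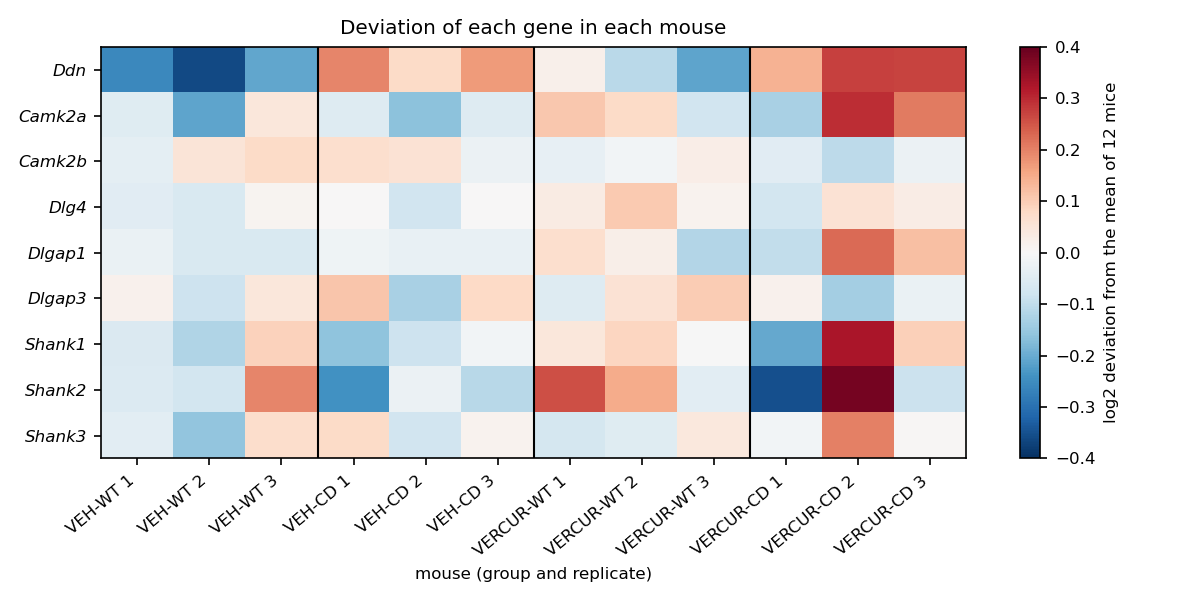
Deviation of each of the 9 genes (rows) in each of the 12 mice (columns, by group and replicate) from the gene's mean over all mice, on the log2 scale, from blue (below) to red (above). Ddn is blue in the VEH-WT mice and red in all CD mice, and VERCUR-CD 2 shows deviations from -0.14 for Dlgap3 to 0.38 for Shank2.

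Some members followed each other across the 12 mice. As a description over samples that share a normalization, Pearson's r was 0.88 for Camk2a and Shank1, 0.87 for Camk2a and Dlgap1 and 0.86 for Shank1 and Shank2, and it was -0.62 for Camk2b and Dlgap1. After the group means were taken out, these were 0.87, 0.86, 0.92 and -0.43. Without VERCUR-CD 2, and with group means left in, they were 0.79, 0.79, 0.79 and -0.34. For Ddn, r after group means were taken out ran from -0.32 with Camk2b to 0.85 with Camk2a. With group means left in these were -0.43 and 0.48. By Pearson's r with group means left in, the 3 genes outside the set most like Ddn were Zfp991 (r = 0.95), Agap2 (r = 0.92) and Lemd1 (r = 0.92). Zfp991 is a zinc finger gene, and Agap2 codes for a GTPase-activating protein of neurons. The 3 most like the mean of the 9 centred profiles were Samd5 (r = 0.96), Lix1 (r = 0.94) and Fech (r = 0.94), the last coding for ferrochelatase of haem synthesis. They were picked as the highest of all genes tested, so these values carry no test. Spearman's rho ran from 0.87 to 0.95 for these 6 genes, and r from 0.82 to 0.93 without the 2 mice farthest from the median. Zfp991 had a mean of 172 normalized counts in WT and 264 in CD mice, and Agap2 77182 and 82969.

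The partners of the 9 genes were read from 6 lists. Of 22 other scaffold genes of the postsynaptic density 0 were called in any of the 7 comparisons, and their median log2 fold change in VEH-CD against VEH-WT was -0.05, with 9 above 0 and 13 below, beside -0.003 over all genes. In that comparison 1 was higher and 2 lower at an unadjusted p under 0.05, beside 11.8% of all genes. Begain, which codes for a protein bound to Dlg4, had the highest log2 fold change, 0.16 (limma, Benjamini-Hochberg adjusted p = 0.323), and Homer1, which links Shank to metabotropic receptors and whose short form is an activity-induced gene, the lowest, -0.54 (adjusted p = 0.345). Homer1 had 11354, 15344 and 12928 normalized counts in VEH-WT mice and 7617, 11934 and 8086 in VEH-CD mice, and the groups overlapped.

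Of 14 genes for other CaMKII subunits, CaMKII inhibitors and calmodulin partners 0 were called in any comparison. Between the vehicle groups 0 of 14 reached an unadjusted p under 0.05, beside 11.8% of all genes. Camk2n1, which codes for an inhibitor of CaMKII, had the highest vehicle log2 fold change, 0.15 (limma, Benjamini-Hochberg adjusted p = 0.526), and Ppp1cc, a catalytic subunit of protein phosphatase 1, the lowest, -0.08 (adjusted p = 0.656). Over both treatments 3 of the 14 were higher and 0 lower at an unadjusted p under 0.05, beside 9.64% of all genes. Camk2n1 again had the highest log2 fold change, 0.17 (limma, unadjusted p = 0.0153, Benjamini-Hochberg adjusted p = 0.373).

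Of 10 glutamate receptor genes whose products the scaffold binds, 0 were called in any comparison. Between the vehicle groups 0 of 10 passed at an unadjusted p under 0.05, beside 11.8% of all genes. Gria1, an AMPA receptor subunit, was at 0.09 (limma, Benjamini-Hochberg adjusted p = 0.630) and Grin2a, an NMDA receptor subunit, at -0.17 (adjusted p = 0.614). Of 10 adhesion genes of the postsynaptic side 0 were called, with Adgrb3 at 0.09 (adjusted p = 0.723) and Lrrtm2 at -0.24 (adjusted p = 0.572). On the presynaptic side 0 of 14 active zone and vesicle genes were called, with Ppfia3, which codes for a liprin-alpha, at 0.16 (adjusted p = 0.323) and Pclo, which codes for Piccolo, at -0.17 (adjusted p = 0.642).

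Of 13 genes of the dendritic cytoskeleton and of RNAs carried into dendrites, 1 was called, in 1 comparison. Bc1, a short non-coding RNA of rodent dendrites that represses translation, lies at chr7:144914470-144914637. It had 599, 350 and 867 normalized counts in VEH-WT mice, 758, 663 and 768 in VEH-CD, 862, 1029 and 1073 in VERCUR-WT and 4564, 2202 and 2832 in VERCUR-CD mice. The 3 VERCUR-CD mice lay above the other 9. Against VEH-WT the VERCUR-CD mice were higher by 2.43 on the log2 scale with a standard error of 0.29 (limma, Benjamini-Hochberg adjusted p = 0.0014), a call that held in all 12 fits that left out 1 mouse, with adjusted p from 0.000574 to 0.00992. Against VERCUR-WT the difference was 1.63 (adjusted p = 0.0543), against VEH-CD it was 2.07 (adjusted p = 0.159), and the interaction was 1.27 (adjusted p = 0.816), and none of these passed. The difference from VERCUR-WT passed with the replicate number as a block (adjusted p = 0.039), with limma voom (0.031) and without VEH-WT 2, VEH-WT 3 or VERCUR-CD 2 (0.00836 to 0.023), and its adjusted p over the fits that left out 1 mouse ran from 0.00836 to 0.245. Bc1 has many similar copies in the mouse genome and is a short transcript, so its count in these mRNA libraries is uncertain.

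Arc, whose mRNA also moves into dendrites and which is switched on with activity, had 20198, 34120 and 25465 normalized counts in VEH-WT mice and 2658, 7210 and 8603 in VEH-CD mice. It had 14339, 1948 and 19267 in VERCUR-WT and 16726, 8537 and 12694 in VERCUR-CD mice. The vehicle groups did not overlap, while the co-treated groups did and spread widely. The vehicle difference of -2.24 on the log2 scale did not pass the adjusted threshold (limma, unadjusted p = 0.00656, Benjamini-Hochberg adjusted p = 0.233).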

How the data were processed

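Libraries were made from cortical RNA, sequenced as paired-end reads and, per the labels and the study's methods, checked with FastQC and mapped to GRCm38 with STAR 2.5.3a. The counting tool and its strand setting are not given in the sources used here. The authors deposited normalized counts, gene counts divided by 1 factor per sample. In every mouse 100% of low values were whole multiples of 1 step (within 0.011), which gave the reads per mouse. Tables of the authors' own comparisons, which hold fold changes and p-values, were not used, and whether they list any member was not settled here.

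Normalized counts were analysed as log2(normalized count + 1) with limma 3.58.1 in R 4.3.3, with 4 group means over 12 mice, an intensity trend and Benjamini-Hochberg adjustment over the 17111 genes with a mean of at least 10. Fold changes are on that scale. The scripts were tested on simulated data. Nothing says that mice of a group are littermates or not, and 3 mice a group limit the precision. The members, the gene lists (including 9 marker and activity lists) and the comparisons were chosen with earlier results of these data known. In each list the text names the genes that passed the adjusted threshold, or otherwise those with the highest and lowest log2 fold change between the vehicle genotypes. Arc, Sik1, B130046B21Rik and the 250 kb window were added or followed up after their values were seen. Positions come from GENCODE M21. Alternatives are given in the closing section.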

Additional observations from a re-analysis of the deposited data

How the results depend on the processing

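Of 848 member fold changes refitted under other settings than leaving out a mouse, 833 kept their direction and their side of the threshold. The count of members called in VEH-CD against VEH-WT went from 1 to 0 with centring within GC bins (Ddn adjusted p = 0.106 in limma with Benjamini-Hochberg adjustment), with no intensity trend (0.0951), with the replicate block (0.052) and with the block and GC bins (0.125). With the block and GC bins the counts over both treatments and in VERCUR-CD against VEH-WT also went from 1 to 0 (Ddn 0.0539 and 0.0824). The log2 fold change of Ddn stayed between 0.394 and 0.425, 0.368 and 0.388, and 0.5 and 0.542 in these 3 comparisons, and its adjusted p ranged from 0.0051 to 0.125, 0.00036 to 0.0539 and 0.000761 to 0.0824. The replicate numbers did not pair the mice (r of deviations -0.347 to 0.267, above 0.1 in 4 of 18 pairs, and 1 of 12 mice was most like its own number), and the block changed no other member's call. limma voom on the recovered reads, chosen after seeing the data, called the same counts of members. The planned edgeR and DESeq2 fits on recovered reads were not run.

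Small differences turned sign. Under quantile normalization this was Camk2b in VEH-CD against VEH-WT (-0.004), Camk2a in VERCUR-CD against VERCUR-WT (-0.05), over both treatments (-0.052) and in VERCUR-CD against VEH-WT (-0.021), and Shank2 in the interaction (-0.009). With GC bins, with or without the replicate block, it was Camk2b in VEH-CD against VEH-WT (-0.018) and Dlg4 in VERCUR-CD against VEH-CD (-0.009).

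Leaving out each mouse in turn, the members called ranged from 0 to 1 in VEH-CD against VEH-WT and in VERCUR-CD against VEH-WT. Log2 fold changes that turned sign in VEH-CD against VEH-WT ranged for Camk2a from -0.088 to 0.039, Camk2b -0.03 to 0.032, Dlg4 -0.008 to 0.032, Dlgap3 -0.017 to 0.103, Shank1 -0.101 to 0.004 and Shank3 -0.01 to 0.105. In VERCUR-CD against VERCUR-WT they ranged for Shank1 from -0.099 to 0.167 and Shank2 -0.339 to 0.027. Over both treatments this was Camk2a from -0.008 to 0.098, Dlgap3 -0.051 to 0.01 and Shank1 -0.078 to 0.055. In VERCUR-CD against VEH-CD it was Shank2 from -0.093 to 0.273 and Shank3 -0.008 to 0.098, in VERCUR-WT against VEH-WT Shank3 from -0.04 to 0.075, and in VERCUR-CD against VEH-WT Dlgap3 from -0.079 to 0.002, Shank1 -0.026 to 0.239 and Shank2 -0.241 to 0.125. In the interaction it was Dlgap1 from -0.004 to 0.159, Shank1 -0.042 to 0.223, Shank2 -0.191 to 0.175 and Shank3 -0.025 to 0.1. None of these differences passed the test in any fit. The cause of these changes was not tested.

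B130046B21Rik lost its call in VEH-CD against VEH-WT with the replicate block (0.052) and with only the groups compared (0.0882), and over both treatments with the block (0.056) and with the block and GC bins (0.0586). Bc1 passed in VERCUR-CD against VERCUR-WT with the block (0.039) and with voom (0.031). Ddn had at least 65036 normalized counts in every mouse, so mice and not reads limit its precision.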
